A study of Mus musculus with 6 samples.

Results

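Wnt ligands are secreted, lipid-modified glycoproteins that signal between neighbouring cells. The 10 genes described here were chosen by name, out of 21755 annotated protein-coding genes: 8 ligands listed as epithelial (Wnt3, Wnt9b, Wnt4, Wnt6, Wnt10a, Wnt7a, Wnt7b and Wnt10b) and, set against them, Wnt5a and Wnt11. For each gene, the peaks of open chromatin with a midpoint in the gene body or within 100 kb of its start site were taken from 6 peak lists. The lists come from ATAC-seq, in which the transposase Tn5 cuts DNA that is not wrapped in nucleosomes, on the palatal shelves of mouse embryos (strain C57BL/6, embryonic day E14.5). Epithelium peeled by hand from trypsin-treated shelves gave 3 libraries, and what was left of the shelves, largely mesenchyme, gave 3 more. Each library was made from about 20000 cells. The series design names 3 embryos for a replicate, the treatment protocol names 5 shelves, and a different number stands in the study's methods. No genotype or drug differs between the tissues. Within a tissue the libraries are labelled as biological replicates, and same-numbered libraries of the tissues have no stated link. If replicates shared embryos, the p-values below measure only the spread between these libraries.

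In the canonical branch of the pathway a Wnt binds a Frizzled receptor and an Lrp5 or Lrp6 co-receptor, beta-catenin escapes degradation, and it acts with TCF and LEF factors on target genes. In the noncanonical branches, for which Wnt5a and Wnt11 are best known, receptors such as Ror2 and Ryk steer cell polarity and movement without beta-catenin. In the developing face, epithelial Wnts signal to the mesenchyme beneath, Wnt5a is made in the mesenchyme and is needed for outgrowth, and loss of Wnt9b or of human WNT3 is linked to orofacial clefts.

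The lists held 270003 to 349322 peaks in epithelium and 295141 to 341741 in mesenchyme. Their peaks had a median width of 331 to 344 bp, and the number of reads behind a peak is unknown. Marker genes went with the tissue labels where they passed the test. By base pairs under peaks, 6 of 10 epithelial markers were higher in epithelium and 0 lower, and 2 of 10 mesenchymal markers were lower and 0 higher. Of all genes tested, 6.3% were higher and 7.62% lower. Not every marker went with its label: 4 of 10 mesenchymal markers had a positive difference (higher in epithelium) by either measure. By peak number 4 of 10 epithelial markers had a negative one. Only 1 of 10 markers in each list passed by peak number, Trp63 and Prrx1. Trp63, the regulator of stratified epithelia, had 29, 30 and 18 peaks in epithelium libraries 1, 2 and 3, against 4, 16 and 8 in mesenchyme. Prrx1, a mesenchymal homeobox gene, had 6, 16 and 14 peaks in epithelium, against 23, 24 and 28 in mesenchyme. Trp63 peaks were thus listed in every mesenchyme library and Prrx1 peaks in every epithelium library. Among markers of other cells, by base pairs under peaks, 1 of 5 endothelial genes passed and was higher (Tek, log2 difference 0.70). The other 4 were negative, Kdr at -0.32 among them, and the list's median was -0.10. Of 5 immune genes 1 was lower (Cd68), of 4 genes of nerve and glia 1 was lower (Elavl3), and of 4 muscle genes 0 passed. By peak number no gene of these other lists passed. The part of other cell types in the ligand values was not tested. In such bulk tissue, fewer cells with an open site and a less open site in each cell cannot be told apart.

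The first question was whether any ligand locus held chromatin open in one tissue alone. Overlapping peaks of the lists were joined into regions, and the 342387 regions found in 2 or more libraries were kept. Epithelium-only regions are those listed in each of the 3 epithelium libraries and none of the mesenchyme libraries, and mesenchyme-only regions the reverse. The windows of the 10 ligands held 641 kept regions, of which 3 were epithelium-only (0.468%) and 14 mesenchyme-only (2.18%). Over all kept regions the shares were 2.98% and 2.21%. All 3 epithelium-only regions lay at epithelial ligands, where they were 3 of 510 regions, beside 11 mesenchyme-only regions. Wnt5a and Wnt11 together had 0 epithelium-only and 3 mesenchyme-only regions of 131, all of them at Wnt11. Another 198 regions (30.9%) had a peak in every library, against 19.1% of all kept regions. A missing peak means that the region did not pass the authors' threshold, not that it was closed.

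The epithelium-only regions are shown first because they are the sites at epithelial ligands that were listed in epithelium alone. For each, the central 200 bases of the merged region are given on the plus strand of mm10 (GRCm38.p6), with matches to any of 12 short motifs in capitals.
Wnt4 epithelium-only region, chr4:137273659-137273858: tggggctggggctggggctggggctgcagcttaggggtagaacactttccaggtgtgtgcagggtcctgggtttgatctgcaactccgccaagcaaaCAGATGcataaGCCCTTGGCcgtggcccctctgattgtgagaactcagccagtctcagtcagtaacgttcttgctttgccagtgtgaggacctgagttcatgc
Wnt6 and Wnt10a epithelium-only region, chr1:74813877-74814076: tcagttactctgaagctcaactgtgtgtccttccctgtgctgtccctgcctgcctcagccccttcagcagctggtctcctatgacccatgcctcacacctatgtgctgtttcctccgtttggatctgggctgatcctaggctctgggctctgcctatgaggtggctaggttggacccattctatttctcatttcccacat
Wnt7b epithelium-only region, chr15:85487996-85488195: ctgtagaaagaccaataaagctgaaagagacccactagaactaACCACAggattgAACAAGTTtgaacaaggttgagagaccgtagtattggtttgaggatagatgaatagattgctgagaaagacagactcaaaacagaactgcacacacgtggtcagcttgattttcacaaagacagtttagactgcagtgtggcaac

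The Wnt4 region lies 3.73 kb upstream of the start of Wnt4, which encodes a ligand needed for kidney and female reproductive tract development, and no other coding start is nearer. Its peaks were 297, 559 and 234 bp wide in epithelium. The capitals mark an E-box (CAGATG), found in 17.4% of all kept regions, and a TFAP2 motif (GCCNNNGGC), found in 7.99% by the same search of the central 200 bases on both strands. The second region lies between genes, 42.1 kb past the start of Wnt6 and 22.5 kb past that of Wnt10a, with epithelium peaks of 293, 222 and 253 bp. None of the 12 motifs matched in it. The third lies in the window of Wnt7b, 94.4 kb from its start, with peaks of 416, 410 and 319 bp, and the start of 7530416G11Rik is nearer to it, at 15.1 kb. Its capitals mark a GRHL motif (AACNNGTT), found in 2.52% of kept regions, and a RUNX motif (TGTGGT, here on the minus strand), found in 16.1%. A motif match describes these letters and does not show that a factor binds.

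The mesenchyme-only regions are shown in the same form, 1 per locus, and are not printed in order of width. At each locus the region whose narrowest of 3 peaks was widest was taken. Loci were ranked by that same width, and those of Wnt7b and Wnt10b were left out. The Wnt6 and Wnt10a region tied at 199 bp with the other mesenchyme-only region of that locus and with those of Wnt7b and Wnt10b, and was taken for its lower start coordinate. No list held a peak narrower than 199 bp, so these regions rest in part on the narrowest peaks listed.
Wnt3 mesenchyme-only region, chr11:103870446-103870645: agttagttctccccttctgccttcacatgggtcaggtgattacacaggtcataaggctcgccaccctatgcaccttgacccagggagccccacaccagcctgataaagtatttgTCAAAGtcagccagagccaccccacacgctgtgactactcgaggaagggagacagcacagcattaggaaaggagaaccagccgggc
Wnt4 mesenchyme-only region, chr4:137359019-137359218: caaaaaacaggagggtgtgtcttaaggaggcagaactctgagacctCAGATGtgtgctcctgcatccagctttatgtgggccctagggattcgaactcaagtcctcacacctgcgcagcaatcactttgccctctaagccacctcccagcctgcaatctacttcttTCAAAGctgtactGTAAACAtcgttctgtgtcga
Wnt6 and Wnt10a mesenchyme-only region, chr1:74809188-74809387: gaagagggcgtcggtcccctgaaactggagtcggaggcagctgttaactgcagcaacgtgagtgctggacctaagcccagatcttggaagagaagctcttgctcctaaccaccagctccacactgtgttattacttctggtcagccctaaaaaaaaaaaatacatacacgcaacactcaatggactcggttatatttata
Wnt7a mesenchyme-only region, chr6:91506736-91506935: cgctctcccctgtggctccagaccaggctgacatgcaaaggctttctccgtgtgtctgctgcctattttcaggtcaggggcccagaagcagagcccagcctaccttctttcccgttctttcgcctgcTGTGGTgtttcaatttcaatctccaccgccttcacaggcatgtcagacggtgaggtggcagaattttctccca
Wnt11 mesenchyme-only region, chr7:98910309-98910508: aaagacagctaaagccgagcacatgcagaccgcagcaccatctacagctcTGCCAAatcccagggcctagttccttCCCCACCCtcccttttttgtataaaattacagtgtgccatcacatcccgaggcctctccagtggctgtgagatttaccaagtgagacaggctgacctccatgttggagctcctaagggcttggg

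These 5 regions stood for 11 mesenchyme-only regions at their loci, and the other 3 lay in the windows of Wnt7b (2 regions) and Wnt10b (1 region). The Wnt3 region, with mesenchyme peaks of 410, 328 and 357 bp, lies in an intron of Nsf, 96.4 kb past the Wnt3 start, and holds a TCF/LEF motif (CTTTGA, minus strand), which 11.0% of kept regions hold. The Wnt4 region, with peaks of 383, 459 and 332 bp, lies 81.6 kb past the Wnt4 start but 1.40 kb from the start of Cdc42, a small GTPase gene. It holds an E-box, a TCF/LEF motif and a FOX motif (TGTTTAC, minus strand), the last found in 2.29% of kept regions. The Wnt6 and Wnt10a region lies 17.8 kb past the Wnt10a start, with peaks of 199, 341 and 292 bp and no motif match. The Wnt7a region, with peaks of 266, 476 and 237 bp, lies in an intron of Xpc, 95.5 kb upstream of Wnt7a, and holds a RUNX motif. The Wnt11 region, with peaks of 399, 339 and 376 bp, lies in an intron of Uvrag, 75.3 kb past the Wnt11 start, and holds a KLF motif (CCCCNCCC, 13.4% of kept regions) and an NFI motif (TTGGCA, minus strand, 11.3%). The TCF/LEF letters, those of the factors through which beta-catenin acts, matched in 4 of the 14 mesenchyme-only regions and in 0 of the 3 epithelium-only regions, too few to compare.

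Most of these regions were over 50 kb from a ligand start, although the number of kept regions within 50 kb is not given for comparison. Within 50 kb of a member start there were 2 epithelium-only and 3 mesenchyme-only regions. Those 3 were a region 10.6 kb upstream of Wnt7a, the one 17.8 kb past Wnt10a, and one 31.3 kb from Wnt9b, a ligand of the facial ectoderm, on the side of its gene body. The Wnt5a window, which holds no other coding start, had 32 kept regions and no tissue-only region of either kind. The counts rest on the all-or-none rule: with a peak in at least 2 of 3 libraries of one tissue and none of the other, the members had 26 epithelium-only and 55 mesenchyme-only regions, where 10.5% and 11.4% of all kept regions were such. With peaks of at least 300 bp alone they had 7 and 8, where the shares over all regions were 3.84% and 2.53%.

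**Figure D1:**
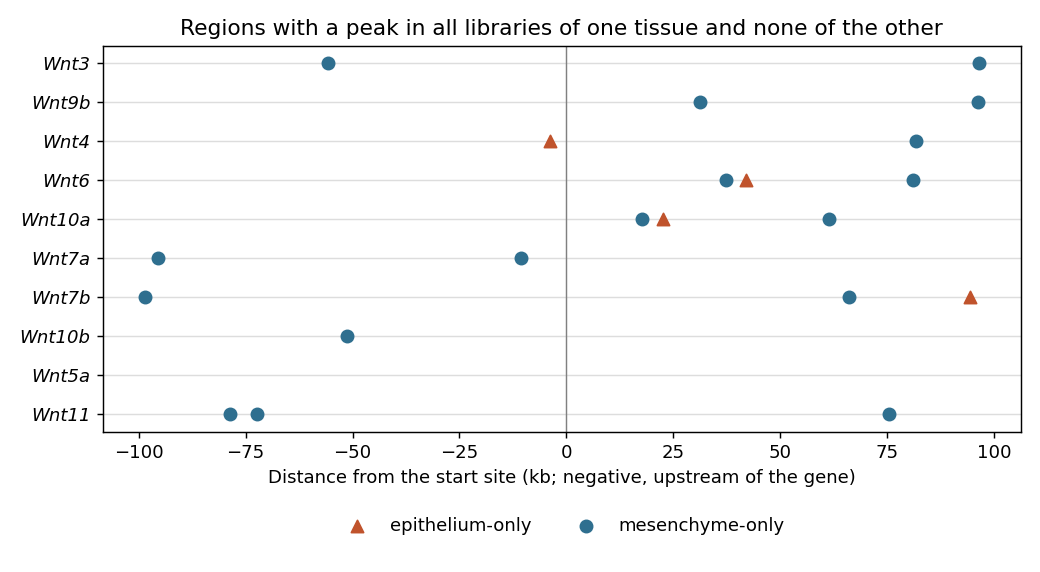
Position of each tissue-only region relative to the start site of each ligand gene (kb, horizontal axis, negative upstream), with epithelium-only regions as triangles and mesenchyme-only regions as circles. Regions in the overlapping windows of neighbouring genes (Wnt3 and Wnt9b, Wnt6 and Wnt10a) can appear in both rows; the Wnt4 triangle at 3.73 kb upstream is the nearest to a start, and Wnt5a has none.

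The second question was whether the ligand windows held more peaks in one tissue. The number of peaks was scaled to the mean list length, tested as log2(peaks + 1) with limma over 21717 genes, and adjusted by the Benjamini-Hochberg method. Of the 10 ligands, 0 were higher in epithelium and 0 lower, where 1.5% of all genes tested were higher and 1.7% lower. Without adjustment limma likewise called 0 of the 10 at p under 0.05, where 7.43% of all genes were higher and 10.5% lower. The log2 difference, epithelium minus mesenchyme, was positive for 1 of 10, against 46.3% of all genes, with a median of -0.10, against -0.02 over all genes. The 10 values are not separate, since Wnt3 shares 87.8% of its window with Wnt9b and Wnt6 shares 90.2% with Wnt10a. With each chromosome scaled by its own number of peaks, Wnt3 stood at 0.04 instead of -0.10. No 95% interval of a member reached below -0.46 or above 0.33, which on the linear scale of scaled peaks plus 1 is 0.725-fold to 1.26-fold.

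Wnt3 and Wnt9b are neighbours on chromosome 11, 24.3 kb apart from start to start, so their windows share most of their peaks. Wnt3, needed for the primitive streak and for limb ectoderm, had 68, 92 and 69 peaks in epithelium libraries 1, 2 and 3, against 80, 92 and 83 in mesenchyme. Wnt9b had 73, 92 and 77 in epithelium, against 91, 101 and 91 in mesenchyme. After scaling, Wnt9b was the only ligand whose tissues did not overlap, with 82.3 ± 1.71 scaled peaks for epithelium and 92.6 ± 3.14 for mesenchyme (SD, n = 3 per tissue), a pattern that 13% of all genes showed in the same direction. Its log2 difference was -0.17 ± 0.11 (SE; limma adjusted p = 0.434). Chromosome 11 held 7.01% to 7.07% of the peaks in epithelium libraries and 7.59% to 7.87% in mesenchyme libraries, and with each chromosome scaled by its own peaks the Wnt9b difference was -0.03.

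Wnt6 and Wnt10a, both expressed in surface ectoderm and its appendages, are neighbours on chromosome 1, 19.6 kb apart. Wnt6 had 48, 55 and 61 peaks in epithelium, against 52, 65 and 67 in mesenchyme. Wnt10a, mutated in human ectodermal dysplasia with missing teeth, had 52, 62 and 68 in epithelium, against 56, 73 and 76 in mesenchyme. The tissues overlapped for both, with log2 differences of -0.10 each (limma adjusted p = 0.751 for Wnt6 and 0.729 for Wnt10a). Wnt4 had 96, 110 and 97 peaks in epithelium, against 114, 105 and 107 in mesenchyme, with a log2 difference of -0.05 ± 0.11 (SE) and overlapping tissues.

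Wnt7a, a ligand of dorsal limb ectoderm, had 63, 85 and 80 peaks in epithelium, against 90, 88 and 97 in mesenchyme. Its scaled values still overlapped, at 77.5 ± 5.84 for epithelium and 90.3 ± 8.77 for mesenchyme (SD, n = 3 per tissue), and its log2 difference of -0.22 ± 0.11 (SE) was the lowest of the members (limma adjusted p = 0.315). Wnt7b, a ligand of lung and kidney epithelia, was the only ligand with a positive difference, 0.13 ± 0.10 (SE). It had 109, 116 and 106 peaks in epithelium, against 101, 108 and 107 in mesenchyme, and an adjusted p of 0.551 by limma. Wnt10b, a canonical ligand known for favouring bone over fat formation, had 83, 98 and 97 peaks in epithelium, against 104, 109 and 106 in mesenchyme, with a log2 difference of -0.14 ± 0.11 (SE).

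Wnt5a had the fewest peaks of the 10 ligands in every library: 25, 33 and 26 in epithelium, against 34, 38 and 23 in mesenchyme. Mesenchyme library 3 was below every epithelium library and mesenchyme library 2 above them all. Its log2 difference was -0.09 ± 0.18 (SE), and the interval from -0.46 to 0.28 was the widest of the members. Wnt11, which has roles in kidney branching and heart development, had 87, 129 and 101 peaks in epithelium, against 111, 115 and 109 in mesenchyme, where the highest and the lowest value were both in epithelium. Its log2 difference was -0.04 ± 0.10 (SE; limma adjusted p = 0.893).

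**Figure D2:**
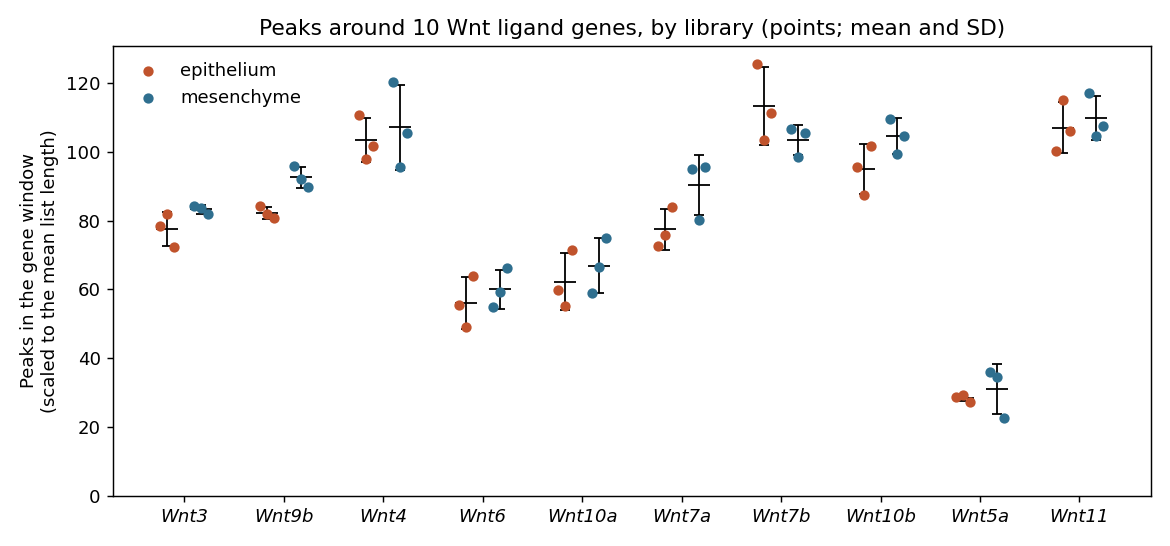
Peaks in the window of each ligand gene, scaled to the mean list length (vertical axis), with each library as a point and the mean and SD of 3 libraries as bars, epithelium left of mesenchyme. Only the Wnt9b groups do not overlap, at 82.3 ± 1.71 and 92.6 ± 3.14 scaled peaks, and Wnt5a is lowest throughout.

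Set against each other, with shared windows counted once, the 8 epithelial ligands had 480, 571 and 530 peaks in epithelium, against 560, 589 and 588 in mesenchyme. Wnt5a and Wnt11 together had 112, 162 and 127 in epithelium, against 145, 153 and 132 in mesenchyme. The ratio of the first sum to the second was 4.29, 3.52 and 4.17 in epithelium libraries and 3.86, 3.85 and 4.45 in mesenchyme libraries. The ratios of the tissues overlapped, with means of 3.99 ± 0.411 for epithelium and 4.06 ± 0.346 for mesenchyme (SD, n = 3 per tissue).

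The base pairs under peaks in the same windows take in peak width, which the number of peaks leaves out. They were scaled to the mean covered length and tested as log2(base pairs + 1000) in the same way. Of the 10 ligands 1, Wnt10b, was lower in epithelium and 0 were higher, where 7.62% of all genes were lower and 6.3% higher. Peaks covered 55.1, 67.7 and 61.0 kb around Wnt10b in epithelium, against 75.3, 85.2 and 76.8 kb in mesenchyme, and every epithelium library was below every mesenchyme library. The log2 difference was -0.26 ± 0.08 (SE; limma adjusted p = 0.0366). Wnt10b and Wnt9b were the 2 members whose scaled values did not overlap, both lower in epithelium, a pattern shown by 17.3% of all genes, although with each chromosome scaled by its own base pairs the log2 difference of Wnt9b was 0.061.

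The Wnt10b window also holds the starts of 7 other coding genes: Ccdc65, Fkbp11, Arf3, Wnt1, Ddn, Prkag1 and Kmt2d. When each peak counted only for the gene with the nearest start, the Wnt10b difference was 0.01 (limma adjusted p = 0.981), and within 10 kb it was -0.09 (0.794). Without one library the adjusted p of Wnt10b went past 0.05 in 5 of 6 cases, up to 0.124 without epithelium replicate 2, and it was 0.0472 without epithelium replicate 1. Of 31 regions in its window with a peak in all 6 libraries, 6 had fewer base pairs under peaks in every epithelium library and 2 had more, where 8.35% and 9.01% of all such regions did. Of these 6, 3 were centred in exons of Kmt2d, which encodes a histone methyltransferase, 1 lay over the start of Prkag1 and 1 in an exon of Wnt10b itself.

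Wnt7a came next, with 27.9, 37.9 and 44.1 kb in epithelium, against 46.2, 46.6 and 49.6 kb in mesenchyme. Its log2 difference of -0.28 ± 0.12 (SE) did not pass (limma adjusted p = 0.101), and after scaling its tissues overlapped. Wnt6, Wnt10a and Wnt7b had positive values of 0.17, 0.15 and 0.12, with intervals that included 0. Around Wnt5a peaks covered 11.3, 16.2 and 12.03 kb in epithelium, against 16.0, 18.1 and 12.4 kb in mesenchyme. Around Wnt11 they covered 48.8, 72.1 and 56.8 kb in epithelium, against 67.0, 64.0 and 70.4 kb in mesenchyme. The differences were -0.12 for Wnt5a and -0.09 for Wnt11, both within the spread of the libraries (limma adjusted p = 0.638 and 0.551).

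**Figure D3:**
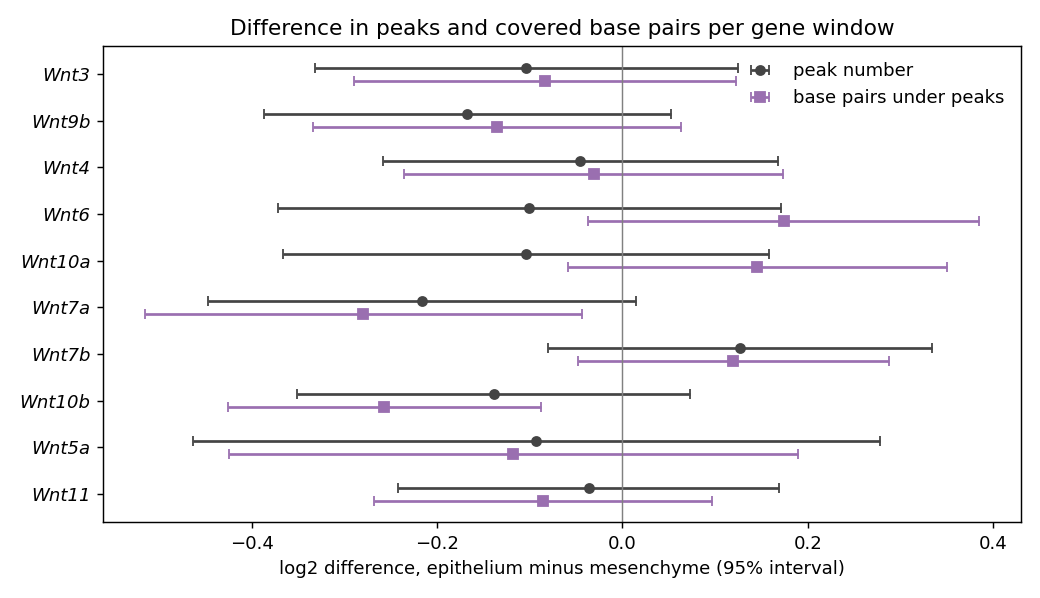
Log2 difference, epithelium minus mesenchyme, in peak number (circles) and in base pairs under peaks (squares) for each ligand window, with the 95% interval from limma. Every interval for peak number includes 0; for base pairs those of Wnt10b (-0.26) and Wnt7a (-0.28) do not, and after adjustment over all genes only Wnt10b passed.

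The third question was the state of the start sites. All 10 ligand genes had a peak over the start site in all 6 libraries, as did 58.1% of all genes, so no ligand start was listed in one tissue alone. What varied was the width of the peak. The widths were tested after they had been seen, by limma on log2 widths, centred on the median gene of each library, over the 12633 genes with such a peak in every library. That fit called 1 gene (0.00792%), which was not a ligand, and at an unadjusted p under 0.05 it called 485 genes wider and 531 narrower, Wnt10a and Wnt5a among them.

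Over the start of Wnt10a the peak was 1806, 1761 and 1854 bp wide in epithelium, against 1108, 1081 and 1430 bp in mesenchyme. Each epithelium library was wider than each mesenchyme library, with a log2 difference of 0.60 ± 0.14 (SE; limma adjusted p = 0.423). Over the start of Wnt4 it was 2495, 4194 and 2088 bp wide in epithelium, against 2031, 1918 and 2002 bp in mesenchyme (log2 difference 0.50 ± 0.23, SE; limma adjusted p = 0.646). These were the 2 ligands with wider peaks in every epithelium library, as had 7.27% of the genes in that fit. Wnt5a alone was narrower in every epithelium library, as had 6.75% of the genes. Its peak was 877, 1872 and 1713 bp wide in epithelium, against 2273, 2925 and 2227 bp in mesenchyme (log2 difference -0.80 ± 0.29, SE; limma adjusted p = 0.581).

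The remaining start sites overlapped between tissues. Of the 8 epithelial ligands, 7 had a positive difference in start width, against 48.7% of all genes, with a median of 0.30 over the 8, against -0.01 over all genes, but the signs of Wnt3, Wnt9b, Wnt7a and Wnt7b turned when single libraries were left out or base pairs within 2 kb were taken instead. In the Wnt3 start, for example, epithelium library 1 had a peak of 3469 bp and libraries 2 and 3 had 1260 and 988 bp, against 1238, 973 and 1404 bp in mesenchyme. Over the Wnt7b start the widths were 2699, 5496 and 3438 bp in epithelium, against 4803, 3277 and 1743 bp in mesenchyme. Over the coding starts Wnt7b-201, Wnt7b-202 and Wnt7b-203 the widths were the same, except for 3173 bp in mesenchyme library 3. Over the Wnt11 start they were 3812, 1827 and 2044 bp in epithelium, against 2914, 2227 and 2654 bp in mesenchyme. Such a width depends on whether nearby openings were listed as one peak or as several.

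**Figure D4:**
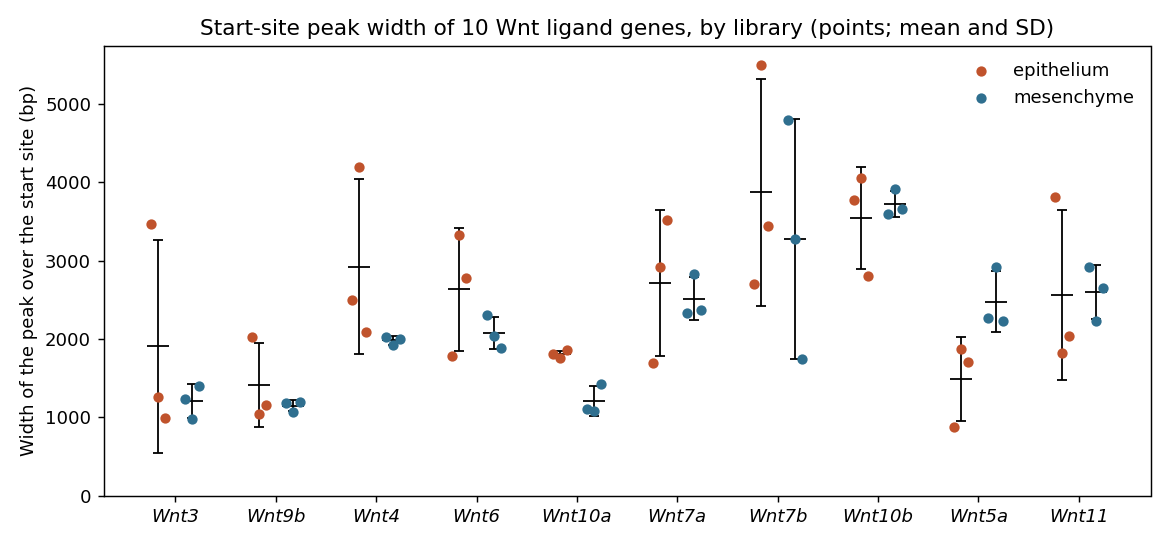
Width in bp of the peak over the start site of each ligand gene, with each library as a point and the mean and SD of 3 libraries as bars, epithelium left of mesenchyme. The Wnt10a and Wnt4 points are all higher in epithelium and the Wnt5a points all lower; none of these passed the adjusted test.

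Some ligands have further annotated starts. The second coding start of Wnt10a (Wnt10a-202, chr1:74793363) had peaks of 2622, 2482 and 353 bp in epithelium, against 436, 750 and 741 bp in mesenchyme. There epithelium libraries 1 and 2 were wider than every mesenchyme library and epithelium library 3 was narrower, unlike at the first Wnt10a start. The coding start Wnt7b-204 (chr15:85578070) had peaks of 3145, 2709 and 2664 bp in epithelium, against 2687, 2757 and 2931 bp in mesenchyme, and the tissues overlapped. Wnt5a has a second coding start (transcript Wnt5a-202, chr14:28511405), and the peak over it was 2393, 2285 and 2195 bp wide in epithelium, against 2507, 2462 and 3005 bp in mesenchyme, again wider in every mesenchyme library but by less than at the first start. The noncoding transcript Wnt5a-204 starts at chr14:28505900, past the first start. In mesenchyme the peak over it was the one over the first start, whereas in epithelium its peaks were 526, 977 and 345 bp. Summed over the merged region that holds the first start, base pairs under peaks overlapped between tissues (log2 difference -0.27 ± 0.17, SE). For Wnt11 the coding start furthest into the gene (Wnt11-205, chr7:98838845) had a peak in all libraries. The start of the noncoding Wnt11-206 (chr7:98847806) had one in mesenchyme libraries 1 and 3 only, 2137 and 3336 bp wide. The start of the noncoding Wnt7b-206 (chr15:85567022) had a peak in every library except epithelium library 1.

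The last question concerned the 198 member regions with a peak in every library. The base pairs under peaks in each were compared by limma over the 65492 such regions in the genome, which was also added after the counts had been seen. Of all these regions 0% passed an adjusted p of 0.05, and 3457 were wider and 4157 narrower in epithelium at an unadjusted p under 0.05. Among the 198, limma called 0 after adjustment and 25 at an unadjusted p under 0.05. With each library centred on its median region, every epithelium library was wider than every mesenchyme library in 19 of the 198, against 9.01% of all such regions, and narrower in 20, against 8.35%. In base pairs as counted, with no centring, the numbers were 13 (6.57%), against 6.26% of all such regions, and 25 (12.6%), against 10.6%. At epithelial ligands the centred counts were 16 wider and 18 narrower of 162. At Wnt11 they were 3 and 2 of 31, and at Wnt5a 0 of 5.

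The 2 member regions with the largest difference are shown as the places near ligand genes where peak width differed most. They were chosen after their values were seen, and their central 200 bases are given as above.
Wnt3 upstream region, chr11:103769110-103769309: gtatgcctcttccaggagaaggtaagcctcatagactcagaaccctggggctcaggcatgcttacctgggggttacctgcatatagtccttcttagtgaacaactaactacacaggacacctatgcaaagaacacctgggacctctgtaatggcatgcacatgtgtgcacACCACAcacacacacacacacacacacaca
Wnt11 upstream region, chr7:98773075-98773274: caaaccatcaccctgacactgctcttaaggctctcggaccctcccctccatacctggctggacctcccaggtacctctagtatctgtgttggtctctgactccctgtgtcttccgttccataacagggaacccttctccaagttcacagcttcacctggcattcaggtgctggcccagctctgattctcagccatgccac

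The first region, chr11:103768492-103769927, lies between genes, 4.94 kb upstream of Wnt3 and 19.4 kb upstream of Wnt9b. Peaks covered 857, 1017 and 1004 bp of it in epithelium, against 264, 341 and 361 bp in mesenchyme, a log2 difference of 1.66 ± 0.28 (SE; limma adjusted p = 0.142). The capitals mark a RUNX motif on the minus strand, next to a run of CA repeats. The second, chr7:98772583-98773767, lies 61.9 kb upstream of Wnt11. It had 888, 720 and 1013 bp under peaks in epithelium, against 199, 275 and 472 bp in mesenchyme, a log2 difference of 1.62 ± 0.39 (SE; limma adjusted p = 0.204). None of the 12 motifs matched in it. Both were taken as the largest differences of 198, so that their tissues stand apart follows from the choice, and neither passed the adjusted test.

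Other such regions lay in or near ligand genes. They too were chosen after their values were seen, so that their tissues stand apart again follows from the choice. Between genes, 2.07 kb upstream of Wnt6, peaks covered 1127, 1211 and 1079 bp in epithelium, against 603, 313 and 528 bp in mesenchyme (log2 difference 1.37; limma adjusted p = 0.205). In an intron of Wnt7b, 42.1 kb past its start, they covered 1669, 1937 and 1905 bp in epithelium, against 959, 1070 and 1387 bp in mesenchyme (0.78; 0.197). The region over the Wnt4 start had 6838, 8013 and 6470 bp in epithelium, against 6218, 4950 and 5656 bp in mesenchyme (0.42; 0.249). Others went the opposite way. At 8.15 kb upstream of Wnt7b, peaks covered 362, 769 and 457 bp in epithelium, against 1509, 1251 and 931 bp in mesenchyme (-1.19; 0.267). In an intron of Wnt7a, 10.8 kb past its start, they covered 223, 392 and 343 bp in epithelium, against 744, 755 and 478 bp in mesenchyme (-0.98; 0.336). In an intron of Wnt10a, 6.46 kb past its start, they covered 580, 676 and 544 bp in epithelium, against 1014, 1044 and 1182 bp in mesenchyme (-0.78; 0.291). The windows of Wnt7b and Wnt10a thus held shared regions that were wider, and others that were narrower, in every epithelium library. So did the Wnt4 window, with 3 wider and 5 narrower of 37. Large differences also lay in other genes of the Wnt10b window, such as 1.48 in an intron of Arf3 and -1.23 in an exon of Kmt2d.

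**Figure D5:**
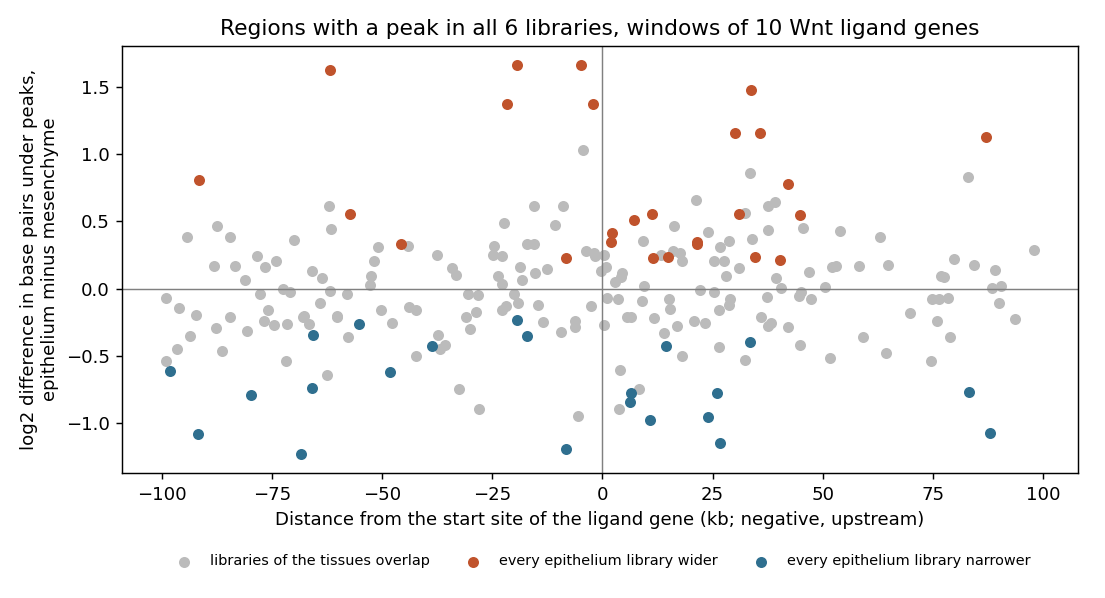
Log2 difference in base pairs under peaks, epithelium minus mesenchyme (vertical axis), for regions with a peak in all 6 libraries, by distance from the start site of the ligand gene (kb, horizontal axis). Coloured points are the regions whose tissues do not overlap after centring, 19 wider and 20 narrower in epithelium among 198 distinct regions; regions shared by neighbouring genes are drawn for each gene.

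The rest of the pathway was read from lists of related genes, by the same window tests. As given above, 6.3% of all genes were higher and 7.62% lower in base pairs, and 1.5% and 1.7% by peak number. Of 9 other Wnt ligands, 1 was higher in base pairs under peaks and 0 lower, and 7 of the 9 had a negative difference. Around Wnt16 peaks covered 9480, 12981 and 11455 bp in epithelium, against 7712, 7535 and 6625 bp in mesenchyme (log2 difference 0.66; limma adjusted p = 0.00613). By peak number none of the 9 passed. Of the 2 genes for secretion of every Wnt, Porcn, which adds the lipid, and Wls, which carries ligands to the surface, 0 passed. Wls had a log2 difference of 0.39 and Porcn of 0.29 in base pairs, and their windows held 6 epithelium-only and 2 mesenchyme-only regions among 40 kept, where 2.98% and 2.21% of all kept regions were such.

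The receptors came next. Of 16 receptor and co-receptor genes, 5 were higher and 1 lower in base pairs. Around Fzd1 peaks covered 10552, 13628 and 10430 bp in epithelium, against 5409, 6011 and 5562 bp in mesenchyme (log2 difference 1.00 ± 0.16, SE; limma adjusted p = 0.000171). Fzd1 was also the receptor gene that passed by peak number, with 20, 26 and 19 peaks in epithelium, against 11, 10 and 6 in mesenchyme (adjusted p = 0.00272). Ryk, a receptor for Wnt5a, was higher at 0.54, Fzd5 at 0.51, Fzd7 at 0.39 and Fzd10 at 0.35, and Fzd9 was lower at -0.39. The receptor windows held 28 epithelium-only and 21 mesenchyme-only regions of 899 (3.11% and 2.34%), close to those shares over all regions.

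Inside the cell, 1 of 17 genes was higher and 0 lower in base pairs, near the share of all genes, and 0 of 17 passed by peak number, where Apc had a limma adjusted p of 0.0974. Around Apc, a scaffold of the complex that destroys beta-catenin, peaks covered 10320, 12305 and 10339 bp in epithelium, against 4830, 8458 and 6227 bp in mesenchyme (log2 difference 0.80; limma adjusted p = 0.00227). Of 8 feedback genes, which beta-catenin signalling induces and which mostly limit it, 0 passed by either measure. Nkd1 stood at -0.26 (limma adjusted p = 0.0765) and Znrf3 at 0.25 (0.183) in base pairs. The windows of the 8 feedback genes held 17 epithelium-only and 12 mesenchyme-only regions of 483 (3.52% and 2.48%), near the 2.98% and 2.21% of all kept regions. The median difference in base pairs was -0.06 over the 8 epithelial ligands, -0.10 over Wnt5a and Wnt11, 0.09 over the receptors and -0.01 over all genes. By peak number the median over the receptors had the opposite sign, -0.07, with 11 of 16 negative, where in base pairs 11 of 16 were positive.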

How the data were processed

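Reads of 6 libraries were trimmed (Trimmomatic 0.38), aligned to mm10 (Bowtie2) and freed of PCR duplicates (SAMtools) by the authors, who kept fragments under 100 bp and called peaks per library with MACS2 2.1.1, as the study's methods and the notes of the submitters say. The notes also name deepTools 2.0, and no source used here states the peak threshold. A deposited list holds only peak positions, in 3 columns (chromosome, start, end), with no height or score, so depth in reads is unknown and list length stands in for it. The study compared read counts, which need reads; peak positions were compared here instead.

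Gene windows (GENCODE M21, outermost 5' start, chromosomes 1 to 19 and X; Y was left out) were counted in Python 3.11.15. Genes averaging 1 or more peaks over the libraries were tested with limma 3.58.1 in R 4.3.3, with a mean trend and no replicate block, on log2(scaled peaks + 1) and log2(scaled base pairs + 1000), adjusted by Benjamini-Hochberg over all genes at 0.05. A log2 difference on these scales understates that of windows with few peaks. Merged regions needed 1 bp of overlap. Start-site and shared-region widths were centred on the median and tested the same way; these tests were chosen after seeing the data.

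The members and gene lists were chosen with earlier results of these data known. All members are named, with 1 tissue-only region per locus and tissue, up to 8, for sequences; pathway genes are named past an adjusted p of 0.05, otherwise up to 2 per list. Further regions were chosen after their values were seen. Sequences come from the RefSeq GRCm38.p6 genome, whose chromosome lengths hold every peak. Alternatives were other scalings, windows, starts, filters, pseudocounts, peak widths and overlaps, nearest-gene assignment, a replicate block and leaving out each library. The tests were checked on simulated data. For peak number and base pairs the simulated spread was a set value, not that of these libraries. Only genes with a mean at or above the median were changed there. For both widths the means and spread came from the data. Of 2-fold changes, 84% were recovered by peak number, 55% by base pairs, 48% by start-site width and 1% by shared-region width. Of 4-fold changes, start-site width recovered 78% and shared-region width 12%. A lack of calls for shared regions thus says little, and start-site widths can also miss 2-fold changes. The share for base pairs describes the set spread alone, and the SE of the members by base pairs was 0.08 to 0.15.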

Additional observations from a re-analysis of the deposited data

How the results depend on the processing

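The peak lists carry no heights, so depth and signal strength could not be weighed, and windows with few peaks, that of Wnt5a above all, gave wide intervals. None of the 10 ligands passed by peak number, in either direction, under any of the 17 alternatives. The 11 changes of sign among the ligands by peak number, 9 of the 10 by base pairs and all 12 by start width were of values that did not pass; the other was Wnt10b by base pairs. The causes were not tested.

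By peak number, Wnt3 stood at 0.035 with own-chromosome scaling and at 0.018 with nearest genes, and Wnt4 at 0.017 within 10 kb and 0.0096 with nearest genes. Wnt11 stood at 0.081 within 50 kb, 0.064 within 10 kb and 0.051 with peaks of at least 300 bp. Leaving out single libraries gave -0.12 to 0.040 for Wnt4, -0.30 to 0.022 for Wnt5a and -0.088 to 0.010 for Wnt11. By base pairs, own-chromosome scaling gave 0.11 for Wnt3 and 0.061 for Wnt9b, the 10 kb window 0.013 for Wnt3 and 0.078 for Wnt4, nearest genes 0.067 for Wnt3 and 0.011 for Wnt4, and leaving out libraries -0.15 to 0.051 for Wnt4.

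The Wnt10b call by base pairs was lost with no scaling (-0.37), own-chromosome scaling (-0.20), and windows of 50 kb (-0.15) and 10 kb (-0.086); with nearest genes its value was 0.011. Its adjusted p ran over 0.0249 to 0.981 across the alternatives, and single libraries left out gave values of -0.29 to -0.22. Wnt7a passed instead with own-chromosome scaling (adjusted p = 0.0456) and without epithelium replicate 3 (0.0143). The number of ligands lower by base pairs was 1; it was 0 with no scaling, with both smaller windows and with nearest genes, and 0 to 1 without single libraries.

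At epithelial ligands, 3 epithelium-only regions became 20 with at least 2 of 3 libraries, 13 with up to 1 library of the other tissue and 5 with peaks of at least 300 bp, and 6 to 11 without single libraries. Their 11 mesenchyme-only regions became 44, 25 and 7, with 3 within 50 kb and 15 to 27 without single libraries. At Wnt5a and Wnt11, 0 epithelium-only regions became 6, 6 and 2, with 0 to 4 without single libraries, and 3 mesenchyme-only regions became 11, 9 and 1, with 0 within 50 kb and 5 to 7 without single libraries. Over all kept regions, the epithelium-only and mesenchyme-only shares also moved: 10.5% and 11.4% with at least 2 of 3 libraries, 5.67% and 5.98% with up to 1 library of the other tissue, 3.84% and 2.53% with peaks of at least 300 bp, and 4.15% to 6.75% and 3.39% to 6.50% without single libraries.

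Base pairs within 2 kb, chosen after seeing the data, gave -0.15 for Wnt9b, -0.041 for Wnt7b and 0.058 for Wnt10b in place of the start-peak width. Widths without single libraries ran -0.12 to 0.79 for Wnt3, -0.087 to 0.46 for Wnt9b, -0.19 to 0.33 for Wnt7a, -0.11 to 0.64 for Wnt7b, -0.17 to 0.051 for Wnt10b and -0.44 to 0.16 for Wnt11.

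Over all genes, peak number gave 325 higher and 370 lower; the counts were 36 and 17 with no scaling, 222 and 224 with own-chromosome scaling, 179 and 159 within 50 kb, 19 and 0 within 10 kb (1016 and 1292 at an unadjusted p under 0.05 by limma) and 47 and 13 with nearest genes. Base pairs gave 1369 higher and 1654 lower, against 319 and 483 with no scaling, which moved the median of all genes to -0.11, 1045 and 1098 with own-chromosome scaling, 908 and 992 within 50 kb, 351 and 197 within 10 kb and 400 and 205 with nearest genes. Without single libraries the counts ran from 162 to 296 higher and 144 to 285 lower by peak number, and from 793 to 1104 higher and 979 to 1572 lower by base pairs.

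Same-numbered libraries of the tissues had correlations of 0.017, 0.049 and -0.010 in their deviations over 21717 genes. These values cannot show whether same-numbered libraries shared embryos, since shared embryos need not leave a common deviation in peak number. With the replicate number as a block, peak number called 437 genes higher and 602 lower and no ligand, against 325 and 370 genes without the block. Wnt10b by base pairs stood at -0.26 with the replicate block (limma adjusted p = 0.0249).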
